A study of Rattus norvegicus with 12 samples.

Results

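The ErbB family is the receptor tyrosine kinase system that carries epidermal growth factor signals, and 10 of its genes were followed in the rat mammary gland around puberty: the 4 receptors Egfr, Erbb2, Erbb3 and Erbb4 and the 6 ligands Areg, Tgfa, Hbegf, Btc, Egf and Nrg1. They were chosen by name, as every gene probe whose array annotation carries one of these symbols, which gave 14 of the 30367 gene probes and 10 of the 26456 gene names on the array. Total RNA came from the lumbar mammary gland (the 4th and 5th pair) of female Wistar offspring, with 3 animals in each of 4 groups and 1 single-dye Agilent array per sample. NP offspring had dams fed 17.0% protein (normal protein) throughout pregnancy and LP offspring had dams fed 8.8% protein (low protein), a diet used to restrict growth in the womb. In both groups litters were cut to 6 females, dams and offspring received standard chow after birth, and glands were taken at day 21 of life, at weaning, or at day 28, so that no offspring in either group ate the low protein diet after birth. The comparisons ask whether ErbB genes differed with the diet of the dam at the start and at the end of this phase of duct growth, and whether they differed between the days.

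In the mammary gland, ErbB receptors sit on epithelial and stromal cells, bind ligands that are mostly made as membrane proteins and released by proteases, pair with each other, and pass the signal to the Ras-ERK and PI3K-Akt cascades. Erbb2 binds no known ligand and acts as a partner, while Erbb3 has little kinase activity of its own and also depends on a partner. Amphiregulin (Areg) is the ligand through which oestrogen drives the growth of pubertal ducts: it is made by hormone-sensing luminal cells and acts on Egfr in the stroma, whereas neuregulin 1 (Nrg1) acts through Erbb3 and Erbb4.

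Levels are given as log2 of the processed scanner signal minus log2 of the 75th percentile of the same array, so that 0 is the 75th percentile and a step of 1 is a doubling. A level of one probe is not compared with that of another, since probes differ in how brightly they bind. The software's call of a signal well above background was met by 11 of the 14 probes on all 12 arrays, by the Erbb4 probe on 7, by 1 of the 3 Erbb2 probes on 2 and by the Btc probe on 1. The 12 probes that met it on at least 3 arrays were tested. Each slide held the arrays of a single day. The day and the slide therefore cannot be told apart, and diets were compared within slides. Within both slides, the first row held all 3 NP arrays and 1 LP array (4a or 4f) and the second row held only the other 2 LP arrays, so that row and diet were largely confounded. The tissue carried the markers of a mammary fat pad: all 8 luminal epithelial, 7 adipocyte and 6 fibroblast markers were well above background on every array. The array of LP 6a at day 21 stood apart from the rest (median correlation with the other arrays 0.960) and so, less far, did that of NP 4f at day 28 (0.974), against 0.982 to 0.989 for the other 10. The labels do not say that samples came from separate litters, so that p values measure the spread between these samples. In whole tissue, fewer cells of a type and less RNA per cell cannot be told apart.

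The probes through which the results below are read are shown first, as the sequences of the array annotation, 5′ to 3′. These stretches carry the protein parts that the family turns on, and are shown whole (60 bases). The dim Erbb2 probe reads the start of the part of the receptor inside the cell, just behind the membrane, where capitals mark the 8 codons for lysine or arginine in reading frame 3. The Nrg1 probe reads the EGF-like domain with which neuregulins bind their receptors, where capitals mark 2 cysteine codons in reading frame 3.
Erbb2 A_64_P038812: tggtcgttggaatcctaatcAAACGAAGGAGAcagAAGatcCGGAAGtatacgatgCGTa
Nrg1 A_64_P281840: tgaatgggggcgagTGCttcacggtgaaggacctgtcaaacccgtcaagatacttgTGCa

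For the other probes whose values are described most closely, the first 30 of 60 bases are shown, in lower case throughout because no part is singled out. They tell the bright pair of Erbb2 probes apart from the dim one and identify what was read for Areg and Hbegf.
Erbb2 A_64_P038817: gcactttcatccagaccagtctttgtacag
Erbb2 A_64_P109493: ttccaaaagtttgagatggtttggctttgg
Areg A_42_P791677: aagtgacgaatcggtccttctttcagcgaa
Hbegf A_64_P041521: atttattgtctgtctacatttcagaagatg

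On rn4, the build of the array annotation, the 3 Erbb2 probes lie on chromosome 10 and the dim one at chr10:87238370-87238429, plus strand, upstream of the pair at chr10:87242482-87242541, plus strand, and chr10:87242734-87242793, plus strand. In the Erbb2 transcript they start at base 2122, 4289 and 4541 as the array annotation counts. The Nrg1 probe lies at chr16:64093933-64093992, plus strand, the Areg probe at chr14:18466438-18466497, minus strand and the Hbegf probe at chr18:29143627-29143686, minus strand. The single Egfr probe lies at chr14:97788051-97788110, plus strand, the Erbb3 probe at chr7:1858095-1858154, minus strand, and the Erbb4 probe spans an intron, at chr9:66844421-66846151, minus strand. Whether one of the other probes lies in coding sequence or in a UTR is not given in the sources used here.

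No member probe differed between LP and NP at an adjusted p (Benjamini-Hochberg over the 23209 tested probes, limma) under 0.05, at day 21, at day 28 or over both days, and 0% of all tested probes did so in these 3 comparisons. At an unadjusted p under 0.05, 3 of the 12 tested member probes differed at day 21, where 4.36% of all tested probes did: Nrg1 and 1 Erbb2 probe were higher and Hbegf was lower in LP. Leaving out single arrays ended the call for Nrg1 without LP 6a, NP 4a or NP 6a, for Erbb2 without LP 4a, LP 6a, NP 4a or NP 6a, and for Hbegf without NP 6a. At day 28 no member probe passed it, against 8.07% of all tested probes. Over both days 4 passed it, against 11.9%: both bright Erbb2 probes and Nrg1 higher and Hbegf lower in LP. Nrg1 and Hbegf passed it in all 12 fits without 1 array, the brighter Erbb2 probe in 5 and the second in 2, and without both LP 6a and NP 4f none of the 4 did. With the slide row in the model, which differed among the LP arrays only, the day 21 differences were 0.99 for Nrg1 (limma unadjusted p = 0.145), 0.63 for Erbb2 (limma unadjusted p = 0.0981) and -0.75 for Hbegf (limma unadjusted p = 0.0205). The 3 LP and 3 NP arrays of a day did not overlap for 2 member probes at day 21, where this held for 11.5% of all probes with a value on each array, and for 2 at day 28, where it held for 16.8%.

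Of the receptors, Erbb2 had the largest differences between LP and NP among those measured on all 12 arrays. Its brighter probe (A_64_P038817) gave levels of -1.01, -0.30 and -0.81 in NP and of -0.14, 0.50 and -0.54 in LP at day 21. The groups overlapped, with NP 5a above LP 7c, and LP 6a was highest. The difference was 0.65 (SE 0.27, 1.57-fold, unadjusted p = 0.0344, limma adjusted p = 0.861). Without LP 6a it was 0.37 (unadjusted p = 0.142 in limma). At day 28 the same probe read -0.76, -0.26 and -0.64 in NP and -0.18, -0.33 and -0.18 in LP. Here the LP arrays lay close together and NP 5f lay among them, and the difference was 0.32 (SE 0.27, limma adjusted p = 0.637), or 0.22 without NP 4f.

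The second bright Erbb2 probe (A_64_P109493) was read in the same way. It read -2.91, -2.04 and -2.71 in NP and -2.02, -1.15 and -2.56 in LP at day 21, a difference of 0.64 (SE 0.32, limma adjusted p = 0.861) that was 0.27 (limma unadjusted p = 0.312) without LP 6a. At day 28 it read -2.49, -2.35 and -2.56 in NP and -1.98, -2.17 and -2.12 in LP. All 3 LP arrays were above all 3 NP arrays on that day, with a difference of 0.37 (SE 0.32, limma adjusted p = 0.647). Across the 12 arrays the pair of bright probes ran together (r = 0.967, both read from the same RNA of each array). Over both days the differences were 0.49 (SE 0.19, unadjusted p = 0.0269) and 0.51 (SE 0.23, unadjusted p = 0.0485), each with a limma adjusted p of 0.418. Without both LP 6a and NP 4f they were 0.29 (limma unadjusted p = 0.103) and 0.31 (limma unadjusted p = 0.126). The dim probe upstream (A_64_P038812) was well above background only in LP 4a and LP 6a at day 21, the arrays that were also the highest on the brighter probe. In a group with no array well above background, each array was set to the lowest signal so called on it. Its own signal was kept where higher. Set in this way, LP at day 21 was 1.34-fold higher than NP on this probe, as in the measured means. This is no lower bound, since the LP mean includes LP 7c at -8.51, not well above background and below all 3 NP arrays. The probe was not tested. The measured means were -6.86 ± 1.44 and -7.28 ± 0.21 (SD, n = 3).

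Egfr, the receptor of Areg, Tgfa and Egf, read 0.16, 0.11 and 0.02 in NP and 0.28, 0.57 and -0.01 in LP at day 21. At day 28 it read -0.51, 0.15 and 0.37 in NP and 0.09, 0.39 and 0.28 in LP. The groups overlapped on both days, and NP 4f was the lowest of all 12 arrays. The differences were 0.19 (95% interval -0.30 to 0.68) at day 21 and 0.25 (-0.24 to 0.74) at day 28. Without LP 6a the first was 0.04, and without NP 4f the second was -0.01. Erbb3, the kinase-poor partner of Erbb2, differed by 0.21 (-0.26 to 0.69) and 0.17 (-0.30 to 0.65), with levels between -4.43 and -3.95 at day 21 and between -4.87 and -3.94 at day 28. The day 28 difference of Erbb3 was -0.09 without NP 4f.

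Erbb4, the neuregulin receptor linked to milk-producing cells, was near the limit of detection, and its spots on an array differed by up to 1.47. It read -7.65, -6.88 and -7.34 in NP and -7.16, -5.63 and -7.10 in LP at day 21, and was well above background on 2 arrays of each group. At day 28 it read -7.63, -6.31 and -7.05 in NP and -6.68, -6.53 and -6.34 in LP. On that day it was well above background on all 3 LP arrays and on none of the NP arrays, although the level of NP 5f lay above all 3 LP levels. With the NP arrays set as for the dim Erbb2 probe, LP was 1.40-fold higher, which is no lower bound. The same fold came from the measured means of -6.51 ± 0.17 and -7.00 ± 0.66 (SD, n = 3), with a limma adjusted p of 0.66. At day 21 the difference was 0.66 (SE 0.43), and 0.16 (SE 0.34) without LP 6a. The day 28 difference was 0.48 (SE 0.43), and 0.17 without NP 4f.

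**Figure D1:**
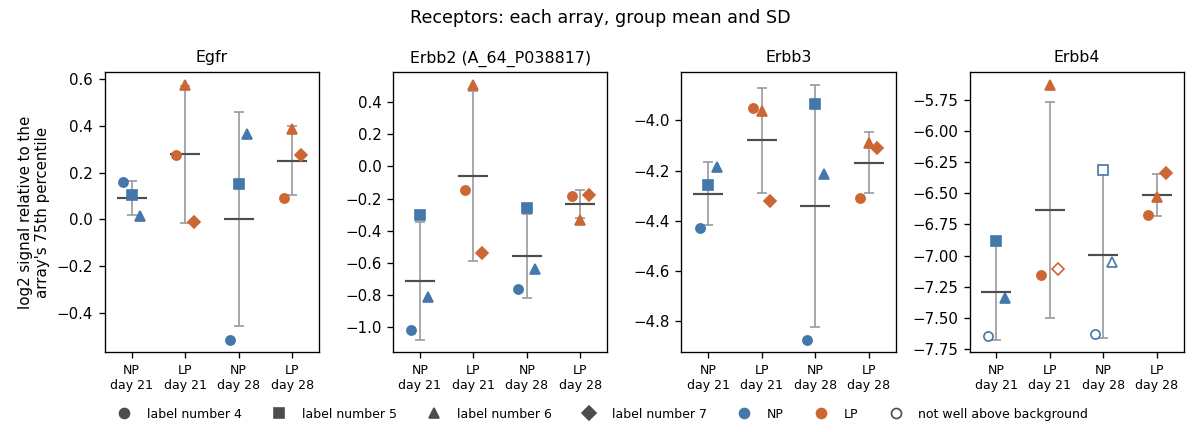
Log2 signal relative to the array's 75th percentile (y axis, own scale in each panel) of Egfr, the brighter Erbb2 probe, Erbb3 and Erbb4 in the 4 groups (x axis). Points are arrays, shaped by the number in the sample label, open where not well above background; horizontal lines are means of 3 and bars the SD. The triangle of LP 6a at day 21 is the highest LP value of that day for Egfr, Erbb2 and Erbb4, and the circle of NP 4f at day 28 is the lowest for Egfr, at -0.51, and for Erbb3, at -4.87.

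Areg, the ligand of pubertal duct growth, varied more between arrays than any other member. At day 21 it read -1.72, -0.88 and -2.80 in NP and -0.72, 0.31 and -2.23 in LP. At day 28 it read -5.35, -0.90 and -1.05 in NP and -0.85, 0.09 and -0.36 in LP. The groups overlapped at day 21. At day 28 all LP arrays were above all NP arrays, but NP 5f at -0.90 and LP 4f at -0.85 were nearly equal, and NP 4f lay far below every other array. The difference was 0.92 (SE 1.11, 95% interval -1.56 to 3.40) at day 21 and 2.06 (SE 1.11, 95% interval -0.42 to 4.54, 4.17-fold, limma adjusted p = 0.581) at day 28. Without NP 4f the day 28 difference was 0.60 (SE 0.73). Without LP 6a the day 21 difference was 0.32 (SE 1.22), without NP 6a 0.42 and without LP 7c 1.59. The 10 spots of this probe on an array had an SD of at most 0.13, so that the low value of NP 4f was shared by its spots.

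Nrg1 had the largest difference among member probes at day 21 and was higher in LP. It read -5.47, -4.36 and -5.65 in NP and -4.22, -3.11 and -4.16 in LP at day 21. All 3 LP arrays were above all 3 NP arrays, although LP 4a at -4.22 and NP 5a at -4.36 lay close together, and LP 6a lay furthest out. The difference was 1.33 (SE 0.51, 2.52-fold, unadjusted p = 0.0251, limma adjusted p = 0.861), and 0.97 (unadjusted p = 0.0978) in limma without LP 6a. At day 28 it read -6.17, -4.35 and -4.75 in NP and -4.65, -4.22 and -4.22 in LP. The groups overlapped, NP 4f was lowest, and the difference was 0.73 (SE 0.51, limma adjusted p = 0.598). Without NP 4f the day 28 difference was 0.19. Over both days it was 1.03 (SE 0.36, limma unadjusted p = 0.0164, adjusted p = 0.418), and without both LP 6a and NP 4f it was 0.58 (limma unadjusted p = 0.0525).

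Hbegf, heparin-binding EGF, a ligand of Egfr and Erbb4, was lower in LP. At day 21 it read -3.54, -3.59 and -2.95 in NP and -4.09, -4.06 and -3.82 in LP. All 3 LP arrays lay below all 3 NP arrays, and NP 6a was the highest. The difference was -0.63 (SE 0.21, 1.55-fold lower, unadjusted p = 0.0149, limma adjusted p = 0.861), and it was -0.42 (limma unadjusted p = 0.0637) without NP 6a and -0.59 (limma unadjusted p = 0.0407) without LP 6a. At day 28 it read -3.36, -4.09 and -3.75 in NP and -4.15, -4.01 and -3.86 in LP. The groups overlapped, and the difference was -0.27 (SE 0.21, limma adjusted p = 0.63), or -0.08 without NP 4f. Over both days it was -0.45 (SE 0.15, limma unadjusted p = 0.014), and -0.34 (limma unadjusted p = 0.0567) without both LP 6a and NP 4f.

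For the other tested ligands, Egf and Tgfa, the intervals of the diet differences included 0 on both days. Egf, the founding ligand of the family, read -3.44, -3.36 and -2.92 in NP and -3.35, -3.04 and -3.11 in LP at day 21 on its brighter probe (A_42_P831499). At day 28 this probe read -2.72, -3.40 and -3.53 in NP and -3.59, -3.52 and -3.30 in LP. The groups overlapped on both days, with differences of 0.07 (95% interval -0.41 to 0.56) and -0.25 (-0.73 to 0.23). Its second probe (A_64_P120734) differed by -0.11 (-0.83 to 0.61) and -0.48 (-1.19 to 0.24). Without NP 4f the day 28 differences were -0.0039 on the brighter and -0.14 on the second probe. Tgfa is an Egfr ligand of growing end buds. Its brighter probe (A_64_P122865), with the narrowest intervals of the 12 tested probes, differed by 0.03 (-0.21 to 0.28) and 0.05 (-0.20 to 0.30), and its second (A_44_P310168) by -0.06 (-0.59 to 0.47) and -0.24 (-0.77 to 0.29), or 0.04 at day 28 without LP 7f. Across the 12 arrays the pair of Tgfa probes hardly ran together (r = 0.146), against 0.873 for the pair of Egf probes. Btc (betacellulin), a ligand of Egfr and Erbb4, was well above background only in NP 4a at day 21, where it read -6.62, and was not tested. With the LP arrays set as for the dim Erbb2 probe, NP at day 21 was 1.18-fold higher than LP. This is no lower bound. The NP mean includes NP 5a (-7.38) and NP 6a (-7.58), which were not well above background and lay below LP 6a (-7.05). The measured means were -7.19 ± 0.51 in NP and -7.54 ± 0.46 in LP (SD, n = 3).

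**Figure D2:**
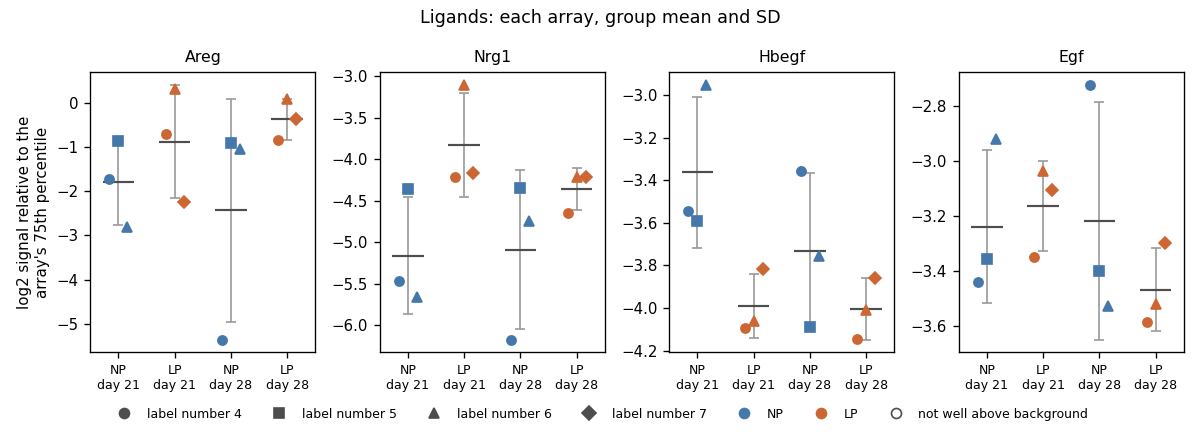
Log2 signal relative to the array's 75th percentile (y axis, own scale in each panel) of the ligands Areg, Nrg1, Hbegf and Egf (brighter probe) in the 4 groups (x axis), with arrays as points, means of 3 as lines and the SD as bars. At day 21 the LP points of Nrg1 lie above and those of Hbegf below all NP points, and at day 28 the NP mean of Areg is pulled down by NP 4f at -5.35.

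Set side by side, 9 of the 12 tested member probes were higher in LP at day 21 and 8 at day 28. Of all tested probes, 52.2% and 42.7% were higher. The member medians were 0.20 and 0.21, where all tested probes had medians of 0.01 and -0.05. The probes of 1 gene and genes of the same cells are not independent. The difference between LP and NP was larger than its SE for 5 member probes at day 21 and for 9 at day 28. The share of all tested probes for which this held is not given, so these counts are not read as a trait of the family. The change of the diet difference between the days passed an adjusted p of 0.05 in limma for no member probe, as for 0% of all tested probes, and an unadjusted p of 0.05 for none, against 2.26% of all tested probes. It was largest for Areg, at 1.14 with a 95% interval of -2.36 to 4.65, so that a diet difference that was the same on both days and one that was several-fold larger at day 28 could not be distinguished with 3 arrays per group. Without NP 4f it was -0.32.

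**Figure D3:**
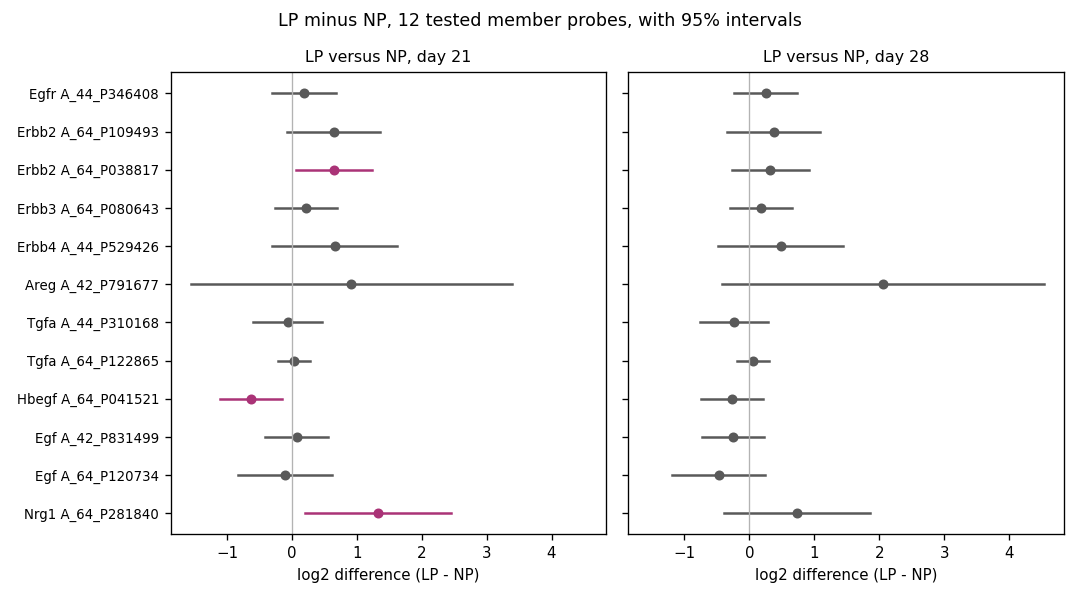
LP minus NP in log2 (x axis) for each of the 12 tested member probes (y axis) at day 21 (left) and day 28 (right), as limma estimates (points) with 95% intervals (lines); purple marks an unadjusted p under 0.05. At day 21 the intervals of Nrg1 (0.20 to 2.46), 1 Erbb2 probe (0.06 to 1.24) and Hbegf (-1.11 to -0.15) leave out 0, and at day 28 all intervals include it.

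From day 21 to day 28, no ErbB gene passed an adjusted p of 0.05 in either diet group, and the intervals of several were wide. In NP, none of the member probes passed it, against 0.25% of all tested probes, and none an unadjusted p of 0.05, against 12.8%. In LP, none passed the adjusted p, as for 0% of all probes, or the unadjusted p, against 10.1%. The arrays of the days did not overlap for 1 member probe in NP (Tgfa, A_64_P122865, higher at day 28) and for 1 in LP (Egf, A_64_P120734, lower at day 28), against 18.7% of all probes in either group. With both diets averaged, no member probe passed the adjusted p, against 1.81% of all probes, and 1 passed the unadjusted p, against 19.2%.

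That probe was Tgfa A_64_P122865. In NP it read -1.95, -2.10 and -2.12 at day 21 and -1.91, -1.68 and -1.90 at day 28, and all day 28 arrays were above all day 21 arrays. In LP it read -2.10, -2.11 and -1.86 at day 21 and -1.90, -1.75 and -1.70 at day 28, where LP 7c of day 21 lay above LP 4f. The difference over both diets was 0.24 (SE 0.08, limma unadjusted p = 0.0133, adjusted p = 0.15), while the second Tgfa probe differed by 0.07 (SE 0.17). Areg differed between the days by -0.64 (95% interval -3.11 to 1.84) in NP and 0.51 (-1.97 to 2.98) in LP, and the NP value was 0.82 without NP 4f, the LP value -0.17 without LP 7c and 1.10 without LP 6a. Nrg1 differed by 0.07 (-1.06 to 1.20) in NP and -0.53 (-1.66 to 0.59) in LP, and the second Egf probe by -0.07 (-0.79 to 0.65) and -0.44 (-1.16 to 0.28). For Egfr the values were -0.09 (-0.58 to 0.40) in NP and -0.03 (-0.52 to 0.46) in LP, and for the brighter Erbb2 probe 0.15 (-0.44 to 0.75) and -0.17 (-0.76 to 0.42). Hbegf, which was lower in LP at day 21, differed from day 21 to day 28 by -0.37 (-0.85 to 0.11) in NP and by -0.01 (-0.49 to 0.46) in LP. The comparisons of diets and of days share these arrays. In the fit without both LP 6a and NP 4f, the NP value of Hbegf was -0.56 (limma unadjusted p = 0.031, adjusted p = 0.31). Erbb4 differed over both diets by 0.20 (SE 0.31), and by 0.61 in that fit (limma unadjusted p = 0.0115, adjusted p = 0.149).

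**Figure D4:**
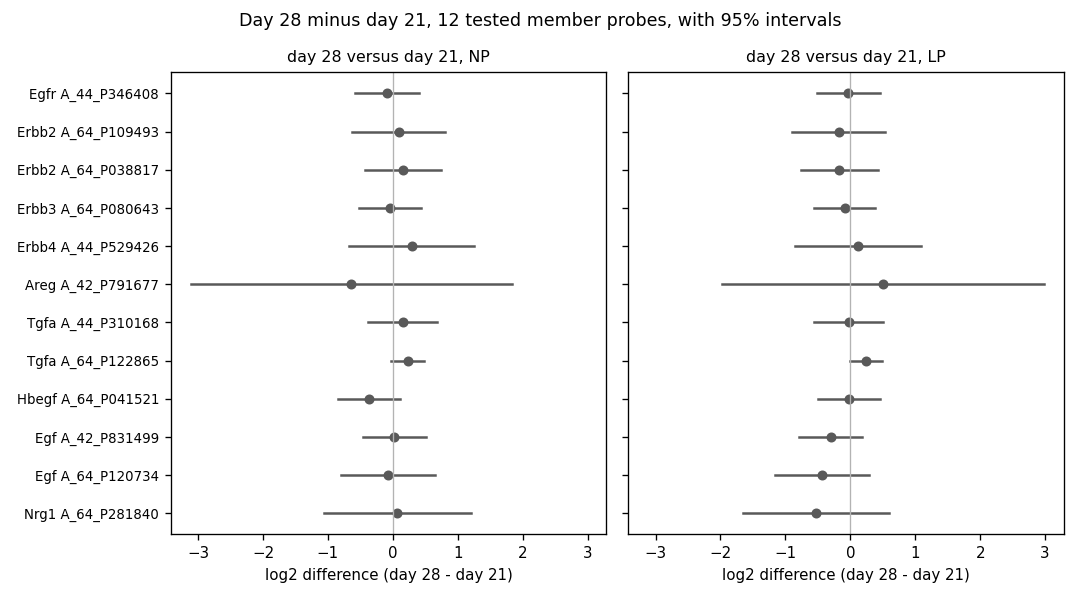
Day 28 minus day 21 in log2 (x axis) for each of the 12 tested member probes (y axis) in NP (left) and LP (right), as limma estimates (points) with 95% intervals (lines). All intervals include 0; the widest are those of Areg, and those of Tgfa A_64_P122865 come closest to leaving 0 out, at -0.02 to 0.48 in NP.

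Markers of luminal epithelium (Krt7, Krt8, Krt18, Krt19, Epcam, Cdh1, Cldn4, Cldn7) moved with several of these genes. All 8 were higher in LP on both days, at a median of 0.79 at day 21 and 0.58 at day 28, and 1 passed an unadjusted p of 0.05 at day 21 and none at day 28. Their mean level was -0.28, 0.83 and -0.21 in NP and 0.98, 1.79 and 0.15 in LP at day 21, and -0.44, 0.79 and 0.58 in NP and 0.86, 1.06 and 0.77 in LP at day 28. LP 6a was thus the highest and NP 4f the lowest array in luminal markers, as in Areg and Nrg1. Without LP 6a and NP 4f the 8 luminal markers were all higher in LP on both days, at medians of 0.47 and 0.17. Of 7 markers of basal and myoepithelial cells, 6 were higher in LP at day 21 and 5 at day 28. None passed an unadjusted p of 0.05 at day 21, and the 1 that passed it at day 28 was lower in LP. With LP 6a and NP 4f left out, 7 and 4 of them were higher, at medians of 0.37 and 0.11. None of the 6 leukocyte markers was higher in LP at day 21, when their mean level was 0.90, -3.23 and 0.64 in LP against 1.04 ± 0.03 (SD, n = 3) in NP. At day 28, 1 was higher, at a median of -0.53. With LP 6a and NP 4f left out, 1 leukocyte marker was higher on each day, at medians of -0.23 and -0.46. In that fit 4 of the 6 passed an unadjusted p of 0.05 at day 28, where 7.67% of all genes did, and none at day 21. None of the 6 skeletal muscle markers was higher in LP at day 21 and 2 were at day 28, at medians of -1.91 and -0.997, with mean levels between -5.63 and 2.51 in LP and between -2.86 and 2.21 in NP over both days. Of the 5 hepatocyte markers, 1 was higher in LP at day 21 and 3 at day 28, at medians of -0.99 and 0.22. The part of these cell types in the ErbB values was not tested.

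Over the 12 arrays, which hold 1 RNA each and share 1 scaling, the correlation with the mean of the luminal markers was 0.93 for the brighter Erbb2 probe, 0.91 for Nrg1, 0.88 for the second Erbb2 probe and for Erbb4, 0.86 for Areg, 0.79 for Egfr and 0.75 for Erbb3. It was -0.77 for Hbegf, -0.41 for both Egf probes and -0.02 and -0.27 for the Tgfa probes. Among all tested probes, 0.853% ran as closely with the luminal mean as Erbb2 and 1.29% as closely as Nrg1, and 0.862% ran against it as closely as Hbegf. Without LP 6a and NP 4f the values were 0.91 for Erbb2, 0.79 for Nrg1, 0.89 for Areg, 0.55 for Egfr and -0.76 for Hbegf.

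Taken relative to the luminal mean of the same array, Erbb2 was -0.82 ± 0.28 in NP and -1.03 ± 0.31 in LP at day 21, and -0.86 ± 0.48 and -1.13 ± 0.24 at day 28 (SD, n = 3). Areg was -1.91 ± 0.60 in NP and -1.85 ± 0.47 in LP at day 21, and -2.74 ± 1.88 and -1.27 ± 0.39 at day 28. Its NP mean at day 28 was pulled down by NP 4f at -4.91. NP 5f at -1.69 and NP 6f at -1.63 lay near LP 4f at -1.71. Nrg1 was -5.28 ± 0.14 in NP and -4.80 ± 0.45 in LP at day 21, and -5.40 ± 0.30 and -5.26 ± 0.26 at day 28. The luminal mean was 0.12 in NP and 0.97 in LP at day 21. Subtracting it lowers LP against NP by the same amount for every probe of a day. What remains therefore follows from each probe's own difference. On this scale Erbb2 was no longer higher in LP, and Areg at day 21 was about equal in both groups. Nrg1 at day 21 stayed higher in LP, with ranges of -5.44 to -5.19 in NP and -5.20 to -4.31 in LP that touch. Hbegf was at -3.48 ± 0.86 in NP and -4.96 ± 0.95 in LP at day 21. The groups lay further apart than before, which the subtraction brings about for any probe that was lower in LP. This widening therefore adds nothing about Hbegf itself. The part of the luminal markers in the diet differences was not tested.

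**Figure D5:**
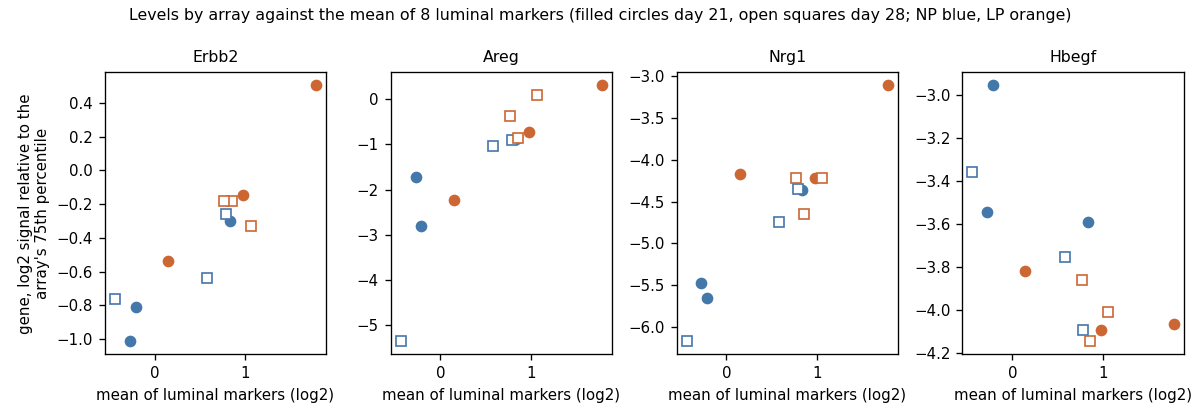
Log2 level of Erbb2 (brighter probe), Areg, Nrg1 and Hbegf (y axis, relative to the array's 75th percentile) against the mean log2 level of 8 luminal epithelial markers (x axis), 1 point per array, with day 21 as filled circles, day 28 as open squares, NP in blue and LP in orange. Erbb2, Areg and Nrg1 were higher where the luminal mean was higher (r = 0.93, 0.86 and 0.91 over 12 arrays) and Hbegf was lower (r = -0.77).

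Of the hormone receptors and factors upstream of Areg, 5 of 5 tested genes (Esr1, Pgr, Gata3, Foxa1 and Prlr) had higher means in LP at day 21 and at day 28, where 52.4% and 42.6% of all tested genes did. Their medians were 0.84 and 0.67, against 0.01 and -0.05 over all genes, and no test of the list was made. Without LP 6a and NP 4f, 4 were higher at day 21 and 5 at day 28, at medians of 0.47 and 0.39. None passed an adjusted p of 0.05 in limma. At an unadjusted p of 0.05, Foxa1, the factor that opens oestrogen receptor sites, passed at day 21 (0.95, SE 0.35), where 4.34% of all genes did, and over both days, where 11.7% did, Foxa1 (0.81, SE 0.25), the prolactin receptor Prlr (0.86, SE 0.30) and the luminal factor Gata3 (0.62, SE 0.27) did. Of these, Foxa1 over both days passed it without LP 6a and NP 4f (0.54, SE 0.22). Which cells of the tissue these values came from was not tested. Of the other ErbB ligands, Ereg, Epgn and Nrg3 were not above background on enough arrays to be tested. The neuregulins Nrg2 and Nrg4 were tested. Over both days Nrg2 differed by 0.44 (SE 0.19, limma unadjusted p = 0.0471), and by 0.30 without LP 6a and NP 4f, and Nrg4 by 0.08 (SE 0.23).

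Downstream of the receptors, 15 of 19 tested ERK target and feedback genes were higher in LP at day 21, at a median of 0.30, and 10 at day 28, at a median of 0.01. Without LP 6a and NP 4f, 12 and 9 were higher, at medians of 0.10 and -0.03. No gene passed an adjusted p of 0.05 in limma. The phosphatase Dusp5 (0.67, SE 0.30) and the feedback inhibitor Spry1 (0.34, SE 0.13) passed an unadjusted p of 0.05 at day 21, and the early gene Ier2 (-0.30, SE 0.12) did so at day 28. These are 2 and 1 of 19 genes, where 4.34% and 7.95% of all genes passed it. Of 23 genes of receptor-proximal signalling, 12 were higher in LP on each day, and Grb7, an adapter that binds Erbb2, passed an unadjusted p of 0.05 at day 21 (0.93, SE 0.39), a share of 4.35% that is near that of all genes. Of 10 genes that restrain or degrade the receptors, 4 were higher in LP at day 21 and 2 at day 28, where Lrig2 passed the unadjusted p (-0.23, SE 0.10), 1 of 10 against 7.95% of all genes. Of 7 genes of ligand release, 5 and 3 were higher, and none passed it. Without LP 6a and NP 4f, none of Dusp5, Spry1, Ier2, Grb7 and Lrig2 passed the unadjusted p in these comparisons.

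Between the days, the pathway held the single gene of these lists past an adjusted p of 0.05. Pik3r2, a regulatory subunit of PI3K, fell from day 21 to day 28 with both diets averaged (log2 difference -0.39, SE 0.08, limma adjusted p = 0.0469). The difference was -0.41 in NP and -0.36 in LP. In each diet group all its day 28 arrays were below all day 21 arrays, and 18.7% of all probes had no overlap in 1 direction or the other. Of all tested genes, 1.84% passed the adjusted p in this comparison. Pik3r2 did not without LP 6a and NP 4f (-0.32, SE 0.08, limma adjusted p = 0.108). The number of all tested probes past it was 421 in the main fit, 485 with only probes above background on all arrays and 21 with the replicate block. Values of Pik3r2 under these alternatives are not given. The kinase Akt1 differed by -0.40 (SE 0.10, limma adjusted p = 0.0756) and Adam15, a membrane protease of the ligand-releasing family, by -0.35 (SE 0.08, limma adjusted p = 0.0680). Bace1, a protease that cuts Nrg1, differed by -0.71 (SE 0.21, limma unadjusted p = 0.00712) in LP, where 9.85% of all genes passed an unadjusted p of 0.05, and by -0.56 without LP 6a and NP 4f. In NP, in LP and with both diets averaged, 3 of the 7 ligand release genes (42.9%) passed an unadjusted p of 0.05 in limma. Of all genes, 12.7%, 9.85% and 19% did. Not all of these 7 genes are named here. Without LP 6a and NP 4f, 1, 2 and 2 of the 7 passed it. These differences between the days cannot be told apart from the change of slide.

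Among themselves, several members ran together over the 12 arrays, and Hbegf ran against them. Areg and Egfr had r = 0.931, Erbb4 and the brighter Erbb2 probe 0.892, Erbb2 and Nrg1 0.866, and Areg and Nrg1 0.837. Hbegf ran against all of these, with -0.753 for Nrg1, -0.702 for Erbb2 and -0.698 for Areg. The brighter Tgfa probe ran with neither, with 0.103 for Areg, 0.0379 for Nrg1, -0.0279 for Egfr and -0.0752 for the brighter Erbb2 probe. Among the genes of the array, the 3 most alike to Areg were Igfbp2 (0.974), an IGF-binding protein, Mia (0.970) and Capn6 (0.967), and those to Egfr were Zfand1 (0.970), Tnfrsf12a (0.968) and Gpsm2 (0.967). Those to Erbb2 were a probe without a gene symbol (0.980), the epithelial membrane protease Prss8 (0.972) and the tight junction gene Tjp3 (0.971), and those to Nrg1 were Gng13 (0.971), Osap (0.969) and Hs3st3a1 (0.965). For Hbegf the closest gene was Stxbp5 (0.899), for Egf Fam198a (0.936), for Erbb3 Zbtb8os (0.934) and for the brighter Tgfa probe Bcl11a (0.922). All of these are correlations over the same 12 arrays, 2 of which stood apart, and describe likeness only.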

How the data were processed

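Mammary RNA had been labelled with Cy3 and hybridised to 12 Agilent rat arrays, 3 for each diet and day. The intensity of every spot, as deposited by the authors, came from Agilent Feature Extraction 10.7.3.1, background-subtracted and corrected for trends within the array, with no scaling between arrays. A second table deposited by the authors, the ratio of processed signal to the array median, was also run as a setting. It holds the same signal divided by a constant for each array, which scaling every array to its own percentile cancels. Its counts and median differences over all tested probes equalled those of the main fit in every comparison. It therefore repeats the main fit and is no independent check.

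Control spots (4259 per array) and outlier spots (259 to 766) were left out, and log2 signals were set relative to the array's 75th percentile (1451 to 2369.6 in signal units). The percentile and the share of spots above background (74.8% to 79.6%) set the precision for dim probes, and the number of arrays limits the precision of every difference. Replicate spots were averaged per probe, and a probe was above background on an array when this held for a share of at least 0.5 of its spots. Probes above background on at least 3 of 12 arrays (23209 probes, 20199 genes) were fitted in 1 model of the 4 group means with limma 3.58.1 in R 4.3.3 (lmFit, eBayes), and p values were adjusted by Benjamini-Hochberg over all tested probes. Where a gene had several probes, every probe is given, and the brightest stands for it in lists and likeness. The rat symbols of the 10 genes were all found in RefSeq.

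The members, the marker and pathway lists and the tests were chosen with earlier results of these data known. From each pathway list, genes past an adjusted p of 0.05, or otherwise past an unadjusted p of 0.05, could be named, at most 4 per list and comparison. Not every gene that passed the unadjusted p is named, above all between the days and over both days. Adam12 and Greb1 found no array probe by name, and Lrig3 and Fosl1 were not tested. The fit was also tested on simulated arrays with known differences. Alternatives were quantile normalization, a percentile over probes above background on all arrays, the deposited table, normexp background with an offset of 50, outlier spots kept, no filter or a stricter filter on dim probes, only the arrays compared, eBayes with trend and robust estimation, the median of a gene's probes, a replicate block, the slide row as a covariate, and leaving out each array. A fit without both LP 6a and NP 4f, for members and lists, and following the unadjusted counts through all settings, were added after the data were seen.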

Additional observations from a re-analysis of the deposited data

How the results depend on the processing

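No member probe passed an adjusted p of 0.05 in any comparison under any alternative run, where the lowest adjusted p was 0.122 (Tgfa A_64_P122865, both diets, without LP 7c). Signs held less well: of 2036 log2 differences under the alternatives, 129 had the opposite sign, in 43 of the 84 combinations of probe and comparison. None of these 129 belonged to a difference with an unadjusted p under 0.05, and 4 belonged to one larger than its SE (Egfr at day 28 and Egf A_64_P120734 between the days). The brighter Erbb2 probe, Nrg1 and Areg were higher and Hbegf lower in LP on each day under each of 25 alternatives. Several of these could not change the difference, so their agreement was fixed in advance. They are the filters on dim probes, only the arrays compared, the eBayes options and the deposited table. Leaving out an array that is not part of the comparison could not change it either. Such unchanged values are also among the 2036.

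Without both LP 6a and NP 4f, the sign turned for Tgfa A_44_P310168 (0.0661) in the diet difference at day 21 and for Egfr (-0.0081) and Erbb3 (-0.0934) in the diet difference at day 28. It also turned for Egf A_42_P831499 (0.0032) in the diet difference over both days and for Areg (0.82), Egf A_42_P831499 (-0.23), Egfr (0.17) and Erbb3 (0.22) between the days in NP. Under this setting it further turned for Egfr (0.12), Erbb2 A_64_P038817 (0.11) and Erbb2 A_64_P109493 (0.20) between the days in LP and for Areg (0.96), Egfr (0.14), Erbb2 A_64_P038817 (0.18), Erbb2 A_64_P109493 (0.15), Erbb3 (0.0923), Nrg1 (0.22) and Tgfa A_44_P310168 (-0.0272) between the days over both diets. The sign likewise turned for Egf A_64_P120734 (0.0276), Egfr (-0.0469), Erbb2 A_64_P109493 (0.0970), Erbb4 (0.0089) and Tgfa A_64_P122865 (-0.0658) in the change of the diet difference. Under normexp, the sign turned for Egf A_64_P120734 (0.0563) in the diet difference at day 21 and for Tgfa A_64_P122865 (-0.0540) in the diet difference at day 28. It also turned for Egf A_64_P120734 (0.17), Egfr (0.0781) and Erbb3 (0.14) between the days in NP and for Egf A_64_P120734 (0.0449), Egfr (0.0532), Erbb3 (0.0788) and Tgfa A_44_P310168 (0.0707) between the days in LP. Under this setting it further turned for Areg (0.13), Egf A_64_P120734 (0.11), Egfr (0.0656), Erbb2 A_64_P038817 (0.12) and Erbb3 (0.11) between the days over both diets and for Egfr (-0.0249) and Tgfa A_64_P122865 (-0.12) in the change of the diet difference. With the median of a gene's probes, the sign turned for Egf A_42_P831499 (-0.0169) and Tgfa A_64_P122865 (-0.0139) in the diet difference at day 21 and for Tgfa A_64_P122865 (-0.0932) in the diet difference at day 28. It also turned for Tgfa A_64_P122865 (-0.0536) in the diet difference over both days and for Egf A_42_P831499 (-0.0250) between the days in NP. Under this setting it further turned for Tgfa A_64_P122865 (-0.0793) in the change of the diet difference. With the slide row as a covariate, the sign turned for Egf A_42_P831499 (-0.0786), Tgfa A_44_P310168 (0.0383) and Tgfa A_64_P122865 (-0.0634) in the diet difference at day 21 and for Tgfa A_64_P122865 (-0.0463) in the diet difference at day 28. It also turned for Tgfa A_64_P122865 (-0.0548) in the diet difference over both days. With the replicate block, the sign turned for Egf A_42_P831499 (-0.0150) and Tgfa A_64_P122865 (-0.0705) in the diet difference at day 21 and for Tgfa A_44_P310168 (0.0841) in the diet difference at day 28. Under quantile normalization, the sign turned for Hbegf (0.0027) between the days in LP and for Tgfa A_64_P122865 (-0.0018) in the change of the diet difference.

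Leaving out single arrays gave 74 of the 129, and the ranges over the arrays left out are given for each difference with such a turn. In the diet difference at day 21, Egf A_42_P831499 ran from -0.0264 to 0.23, Tgfa A_44_P310168 ran from -0.20 to 0.0661, Egf A_64_P120734 ran from -0.30 to 0.19 and Tgfa A_64_P122865 ran from -0.0483 to 0.0866. In the diet difference at day 28, Tgfa A_44_P310168 ran from -0.41 to 0.0423, Egfr ran from -0.0081 to 0.43 and Erbb3 ran from -0.0934 to 0.38. In the diet difference over both days, Egf A_42_P831499 ran from -0.17 to 0.0348. Between the days in NP, Areg ran from -1.40 to 0.82, Egf A_42_P831499 ran from -0.23 to 0.18, Egfr ran from -0.27 to 0.17, Erbb4 ran from -0.0524 to 0.61 and Erbb3 ran from -0.25 to 0.22. Further, Erbb2 A_64_P109493 ran from -0.0871 to 0.35, Egf A_64_P120734 ran from -0.41 to 0.22 and Nrg1 ran from -0.30 to 0.61. Between the days in LP, Areg ran from -0.17 to 1.10, Tgfa A_44_P310168 ran from -0.20 to 0.26, Egfr ran from -0.17 to 0.12, Erbb4 ran from -0.15 to 0.62 and Erbb2 A_64_P038817 ran from -0.41 to 0.11. Further, Hbegf ran from -0.0864 to 0.0737 and Erbb2 A_64_P109493 ran from -0.50 to 0.20. Between the days over both diets, Areg ran from -0.45 to 0.66, Tgfa A_44_P310168 ran from -0.0211 to 0.20, Egfr ran from -0.15 to 0.0688, Erbb2 A_64_P038817 ran from -0.13 to 0.13 and Erbb3 ran from -0.17 to 0.0635. Further, Erbb2 A_64_P109493 ran from -0.21 to 0.15 and Nrg1 ran from -0.42 to 0.0401. In the change of the diet difference, Areg ran from -0.32 to 1.91, Tgfa A_44_P310168 ran from -0.35 to 0.10, Egfr ran from -0.19 to 0.25, Erbb4 ran from -0.49 to 0.33 and Erbb3 ran from -0.31 to 0.16. Further, Erbb2 A_64_P109493 ran from -0.59 to 0.11 and Tgfa A_64_P122865 ran from -0.0360 to 0.0989.

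The counts of member probes at an unadjusted p under 0.05 moved more. At day 21 (3 probes) the count was 1 with the slide row as a covariate, which left Hbegf, and 5 with the replicate block. At day 28 (0 probes) it was 1 with only the arrays compared and 1 with the replicate block. Over both days (4 probes) it was 1 with the slide row and 0 without both LP 6a and NP 4f. From day 21 to day 28 it was 1 in NP and 1 in LP without these arrays, 1 in LP with only probes above background on all arrays and 1 with only the arrays compared, and over both diets (1 probe) 0 with the median of a gene's probes, 0 under normexp and 2 without these arrays. The causes of these changes were not tested.

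Leaving out 1 array at a time gave 0 to 4 at day 21, with 1 without LP 6a, 1 without NP 4a and 0 without NP 6a. It gave 0 to 1 at day 28, where Areg passed without NP 5f or NP 6f, 2 to 5 over both days, 0 to 1 in NP and 0 to 1 in LP between the days, 1 to 2 over both diets and 0 to 0 for the change of the diet difference. The counts at the adjusted p were 0 to 0 throughout.

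Whether the numbers in the labels pair the samples was not settled. Deviations of same-numbered arrays correlated between -0.0553 and 0.379, and not every pair was above 0.1. No such values are given for arrays of different numbers. The replicate block gave 0 member probes at the adjusted p in each comparison. At day 21, Nrg1 was at 1.90 in it (limma unadjusted p = 0.0099, adjusted p = 0.508). The brighter Erbb2 probe was at 1.09 (limma unadjusted p = 0.0048, adjusted p = 0.492). Its diet differences rest on the numbers 4 and 6 alone, the ones present in both diets. The slide as a block was not run, because each slide holds 1 day. Dim probes limit Erbb4, Btc and 1 Erbb2 probe most.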
